A study of Homo sapiens with 6 samples.

Results

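The interleukin 6 (IL-6) family was examined as 10 genes, matched by gene symbol in a table of 30716 genes. They comprised the ligands IL6, IL11, LIF and CLCF1, the receptor chains IL6R, IL6ST, LIFR and OSMR, the transcription factor STAT3 and the feedback inhibitor SOCS3. All 10 were present in the table. The members were chosen by their pathway role with the FPKM differences between ENO1-knockdown and control cells already known, among them that of IL6. The fold changes and calls of the 10 genes are therefore given as a description, and nothing is supported with them.

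shENO1 and shcon groups of cells labelled SNU16, a human gastric carcinoma line, were compared by RNA sequencing. The ENO1-knockdown group (shENO1) carried a short hairpin RNA against ENO1, the gene of the glycolytic enzyme alpha-enolase, and the control group (shcon) a control hairpin. The shENO1 cells had been infected with lentivirus and enriched by puromycin. Each group had 3 libraries, which the submitters call biological replicates without saying whether they came from separate cultures, so the spread between them may be technical. The level of ENO1 was 99.5, 84.9 and 91.1 FPKM in the shENO1 libraries, against 323, 312 and 386 FPKM in the shcon libraries. FPKM divides the fragments of a gene by its exon length and by the size of the library. The libraries held an estimated 15572370 to 16963851 fragments each. A single fragment on 1 kilobase of exon then corresponded to 0.0589 to 0.0642 FPKM.

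The label of the cells was taken as given and set beside markers of cell types, which do not settle it. The epithelial markers were mixed. KRT8 and KRT18 averaged 156 and 176 FPKM over the 6 libraries, and CLDN4 7.65 FPKM. EPCAM and CDH1, defining epithelial genes, averaged only 1.11 and 0.813 FPKM, and KRT19 and CLDN3 were near 0 with 0.00858 and 0.04 FPKM. The summed level of the 7 markers, mostly KRT8 and KRT18, was 197 to 229 FPKM in shENO1 libraries and 416 to 545 FPKM in shcon libraries. CLDN4 went the other way, with means of 8.11 FPKM in shENO1 and 7.18 FPKM in shcon libraries. CLDN4, EPCAM and CDH1 were not called. Of 7 fibroblast markers, 5 were in the table, with a sum of 14.5 to 15.1 FPKM in shENO1 libraries and 22.2 to 29.2 FPKM in shcon libraries. LUM, DCN and COL1A1 averaged 8.76, 5.77 and 5.41 FPKM over the 6 libraries, and PDGFRB and COL3A1 0.546 and 0.0547 FPKM. Of 4 endothelial markers, CDH5 alone reached a mean of 0.5 FPKM, averaging 9.24 FPKM, above EPCAM and CDH1. The endothelial sum was 3.87 to 5 FPKM in shENO1 libraries and 9.32 to 16.4 FPKM in shcon libraries. The leukocyte markers stayed under 0.5 FPKM in sum in each library, with 3 of 7 in the table and PTPRC, which defines leukocytes, at 0 in 5 of 6 libraries. In such bulk RNA, fewer cells of a type and less RNA per cell cannot be told apart, and the part of these markers in the results below was not tested.

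Cytokines of the IL-6 family signal through gp130, the shared receptor chain encoded by IL6ST. IL-6 first binds its own alpha chain IL6R, and IL-11 binds IL11RA, before gp130 is engaged, whereas LIF uses gp130 paired with LIFR and oncostatin M uses gp130 paired with OSMR or LIFR. Janus kinases on the receptor chains then phosphorylate STAT3, which enters the nucleus and induces, among others, SOCS3, an inhibitor that closes the loop. IL6 itself is a classical target of NF-kB, C/EBP and AP-1 factors in inflamed and stressed epithelium, and its short-lived mRNA is controlled by proteins that bind AU-rich elements.

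Start-site sequences of the members with the clearest differences in level are shown first, since the genes IL6, OSMR and IL6ST were higher and IL6R was lower in shENO1 cells. Each covers 250 bases before to 50 bases after a gene start in RefSeq, on GRCh38.p14, in the direction of the gene. Capitals mark matches, on either strand, to any of 6 motifs: the NF-kB consensus, TTCNNNGAA for STAT factors, TGANTCA for AP-1, TTGCNNAA for C/EBP, TGATGNAA for the ATF4 element and TATAAA for the TATA box.
IL6, chr7:22726950-22727249, plus strand: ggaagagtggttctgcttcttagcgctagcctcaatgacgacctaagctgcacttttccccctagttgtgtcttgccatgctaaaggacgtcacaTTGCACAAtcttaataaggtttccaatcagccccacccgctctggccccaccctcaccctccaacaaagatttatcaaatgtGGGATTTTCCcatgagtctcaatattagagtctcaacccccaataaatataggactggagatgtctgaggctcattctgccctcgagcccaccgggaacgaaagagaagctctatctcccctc
OSMR, chr5:38845762-38846061, plus strand: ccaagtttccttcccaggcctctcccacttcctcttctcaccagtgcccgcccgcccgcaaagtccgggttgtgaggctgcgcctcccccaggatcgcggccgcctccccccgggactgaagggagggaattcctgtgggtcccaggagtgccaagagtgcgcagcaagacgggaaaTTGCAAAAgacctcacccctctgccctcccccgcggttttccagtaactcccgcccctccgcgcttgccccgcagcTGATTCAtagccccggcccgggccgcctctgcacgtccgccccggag
IL6ST, chr5:55994914-55995213, minus strand: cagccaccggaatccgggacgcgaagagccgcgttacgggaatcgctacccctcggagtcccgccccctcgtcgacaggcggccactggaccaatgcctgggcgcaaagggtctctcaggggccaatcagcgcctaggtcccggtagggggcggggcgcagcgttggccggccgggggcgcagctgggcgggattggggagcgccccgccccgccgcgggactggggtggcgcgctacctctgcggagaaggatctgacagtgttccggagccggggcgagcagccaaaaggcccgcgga
IL6R, chr1:154405093-154405392, plus strand: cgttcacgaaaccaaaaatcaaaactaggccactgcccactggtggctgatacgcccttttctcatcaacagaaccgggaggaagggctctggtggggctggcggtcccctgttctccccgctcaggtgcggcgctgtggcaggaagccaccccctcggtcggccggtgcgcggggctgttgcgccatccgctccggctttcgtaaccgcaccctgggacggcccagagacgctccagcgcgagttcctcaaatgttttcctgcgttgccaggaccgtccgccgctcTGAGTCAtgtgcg

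The IL6 window held the NF-kB match GGGATTTTCC 73 bases before the start and the C/EBP match TTGCACAA 155 bases before it. The OSMR window held the C/EBP match TTGCAAAA 73 bases before the start and the AP-1 match TGATTCA at base 4 of the transcript, and the IL6R window held the AP-1 match TGAGTCA at base 38. The IL6ST window held no match to the 6 motifs. Start windows were at hand for 8 of the 10 members, 11 windows in all, with LIF and CLCF1 the members without one. The NF-kB consensus occurred in the window of 1 of these 8 members, namely IL6, and in 5.91% of all 35116 windows. AP-1 letters occurred in 3 members (IL11, IL6R and OSMR) and 7.71% of all windows, and C/EBP letters in 3 members (IL6, LIFR and OSMR) and 10.5% of all windows. STAT letters occurred in LIFR alone, in 2 of its 3 windows, against 7.66% of all windows. The TATA box occurred in 1 member (LIFR) and 11.5% of all windows, and the ATF4 element in 0 members and 3.62% of all windows. A match describes letters in a window and does not show binding.

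The 3′ untranslated regions were compared for ATTTA pentamers, the core of AU-rich elements. IL6 had 6 pentamers in 429 bases, or 14 per kilobase, a density reached by 0.489% of the 11236 expressed coding genes compared, whose median was 1.59 per kilobase. The other members lay between 1.47 per kilobase for IL6R and 5.56 per kilobase for IL11. A stretch of 30 bases from IL6, at chr7:22731697-22731726 on the plus strand of GRCh38, carries 2 of its pentamers, shown in capitals.
IL6 3′ stretch: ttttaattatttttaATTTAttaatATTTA

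IL6 transcript was more abundant in ENO1-knockdown cells, by a ratio of 4.13 between the group means. IL6 (ENSG00000136244), on chromosome 7 from 22725884 to 22732002, was at 11.5, 12 and 12.8 FPKM in shENO1 libraries, against 3.53, 3.51 and 1.74 FPKM in shcon libraries. The 3 shENO1 libraries were close together and all above the controls, among which replicate 3 was lowest. The mean was 12.1 ± 0.623 FPKM for shENO1 and 2.93 ± 1.03 FPKM for shcon (SD, n = 3 each). The difference of log2(FPKM + 1), shENO1 minus shcon, was 1.77 (standard error 0.19). This scale, used for all fold changes here unless stated, understates changes of genes near or below 1 FPKM. In whole fragments recovered from the FPKM steps, IL6 rested on 389, 422 and 411 fragments in shENO1 libraries and 119, 116 and 60 in shcon libraries, and limma-voom on such fragments gave 2.12. The antisense gene IL6-AS1, which shares 1737 bases with IL6 on the opposite strand, was at 0.188 to 0.674 FPKM in shENO1 libraries and 0 to 0.441 FPKM in shcon libraries. STEAP1B, the other gene overlapping IL6, had at most 3 fragments in a library.

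**Figure D1:**
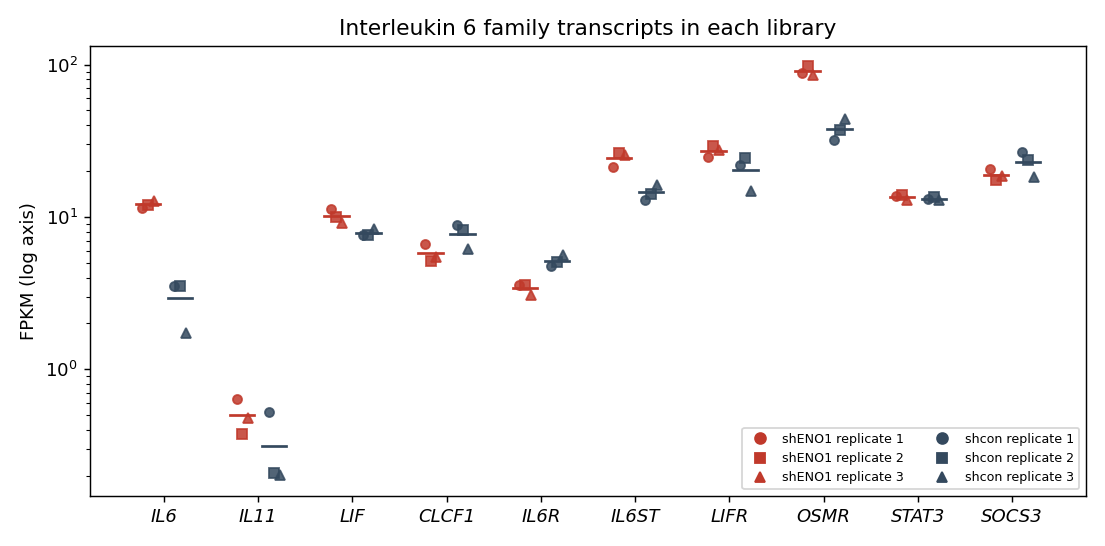
FPKM of each of the 10 members in each library on a log axis, with shENO1 in red to the left of shcon in dark blue, the replicate given by the symbol and the group mean by a line. IL6, LIF, IL6ST, LIFR and OSMR lie above the controls in all 3 shENO1 libraries, IL6R lies below them, and the groups of IL11, CLCF1, STAT3 and SOCS3 overlap.

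Among the other ligands, LIF was slightly more abundant in shENO1 cells, while IL11 and CLCF1 did not separate the groups. LIF, named for inhibiting leukemia cells and known for keeping mouse stem cells undifferentiated, was at 11.2, 9.97 and 9.07 FPKM in shENO1 libraries, against 7.57, 7.61 and 8.39 FPKM in shcon libraries. The groups of LIF did not overlap, but the gap between the lowest shENO1 and the highest shcon library was smaller than the range within either group. The log2 fold change of LIF was 0.32 (standard error 0.10). It was 0.58 once the dependence on GC content and exon length had been subtracted in each library. CLCF1, a cytokine that signals through the receptor of ciliary neurotrophic factor, was at 6.64, 5.17 and 5.49 FPKM in shENO1 libraries, against 8.83, 8.15 and 6.13 FPKM in shcon libraries. Its groups overlapped, since shcon replicate 3 lay below shENO1 replicate 1. The log2 fold change of CLCF1 was -0.36 (standard error 0.14). CLCF1 lies within the span given for RAD9A on the opposite strand, and RAD9A was at 4.78, 3.86 and 3.42 FPKM in shENO1 libraries and 5.76, 6.42 and 5.54 FPKM in shcon libraries. IL11, a cytokine of bone marrow and of gastric tumors in mice, was low, at 0.641, 0.374 and 0.48 FPKM in shENO1 libraries and 0.527, 0.21 and 0.202 FPKM in shcon libraries. Its groups overlapped, and it rested on 28, 17 and 20 fragments in shENO1 libraries and 23, 9 and 9 in shcon libraries. The mean of IL11 over the libraries was under the minimum of 0.5 FPKM, so that it was not tested.

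Of the receptor chains, OSMR and IL6ST were higher and IL6R was lower in ENO1-knockdown cells, and LIFR did not pass the threshold, except with limma-voom on recovered fragments. OSMR (ENSG00000145623, chromosome 5 from 38845858 to 38945596), the chain specific to oncostatin M, had the highest FPKM of the family in every library. It was at 88, 97.3 and 85.1 FPKM in shENO1 libraries, against 32.2, 37.4 and 43.7 FPKM in shcon libraries. The lowest shENO1 library was far above the highest control, and the log2 fold change was 1.24 (standard error 0.12). The 3′ end of OSMR overlaps that of RICTOR on the opposite strand, where RICTOR was at 27, 33.2 and 30.2 FPKM in shENO1 libraries and 14, 15.5 and 16.2 FPKM in shcon libraries. The sources used here do not give whether strand was used in counting, so reads of the 7677 shared bases, and likewise those CLCF1 shares with RAD9A, cannot be told apart. The antisense genes of LIF, IL6R and LIFR were low, LIF-AS2 reaching 1.16 FPKM, IL6R-AS1 0.24 FPKM and LIFR-AS1 1.09 FPKM in the highest library.

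IL6ST (ENSG00000134352, chromosome 5 from 55935095 to 55995022), which encodes gp130, was at 21.3, 26.2 and 25.4 FPKM in shENO1 libraries, against 13, 14.2 and 16.3 FPKM in shcon libraries. All 3 shENO1 libraries were above the controls, and the log2 fold change was 0.71 (standard error 0.12). IL6ST has a low GC content of 37.6%. The tenth of genes with the lowest GC content had a median deviation of 0.059 to 0.289 log2 units in shENO1 libraries and -0.279 to -0.055 in shcon libraries. After the dependence on GC content and exon length had been subtracted in each library (trends removed), the log2 fold change of IL6ST was 0.24. That of OSMR was then 1.01 and that of IL6 1.79.

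LIFR, the second chain of the LIF receptor, was at 24.9, 29.2 and 27.7 FPKM in shENO1 libraries, against 22, 24.2 and 14.8 FPKM in shcon libraries. Its groups did not overlap, but shENO1 replicate 1 and shcon replicate 2 were nearly equal and shcon replicate 3 was far below the other controls. The log2 fold change of LIFR was 0.43 (standard error 0.17), 0.23 without shcon replicate 3, and -0.01 with the trends removed. IL6R (ENSG00000160712, chromosome 1 from 154405193 to 154469450), the alpha chain that gives IL-6 access to gp130, was at 3.59, 3.57 and 3.07 FPKM in shENO1 libraries, against 4.75, 5.1 and 5.67 FPKM in shcon libraries. Every shENO1 library was below every control, and the log2 fold change was -0.48 (standard error 0.10), or -0.36 with the trends removed.

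Because FPKM are scaled to the exon length of a gene, the chains can also be set against each other within a library. This length is not that of a single transcript, so the size of a ratio also depends on the exons annotated. The ratio of IL6R to IL6ST was 0.168, 0.137 and 0.121 in shENO1 libraries, against 0.366, 0.36 and 0.348 in shcon libraries. The FPKM of IL6R relative to that of IL6ST was thus lower in each shENO1 library than in any control. IL6R has a GC content of 55.4% and IL6ST of 37.6%, and the log2 fold change of IL6R minus that of IL6ST was -1.19, but -0.60 with the trends removed. The ratio of OSMR to IL6ST was 4.12, 3.72 and 3.35 in shENO1 libraries, against 2.48, 2.64 and 2.69 in shcon libraries, and these groups did not overlap either. The ratio of LIFR to IL6ST was 1.17, 1.12 and 1.09 in shENO1 libraries, against 1.7, 1.71 and 0.911 in shcon libraries, and its groups overlapped.

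**Figure D2:**
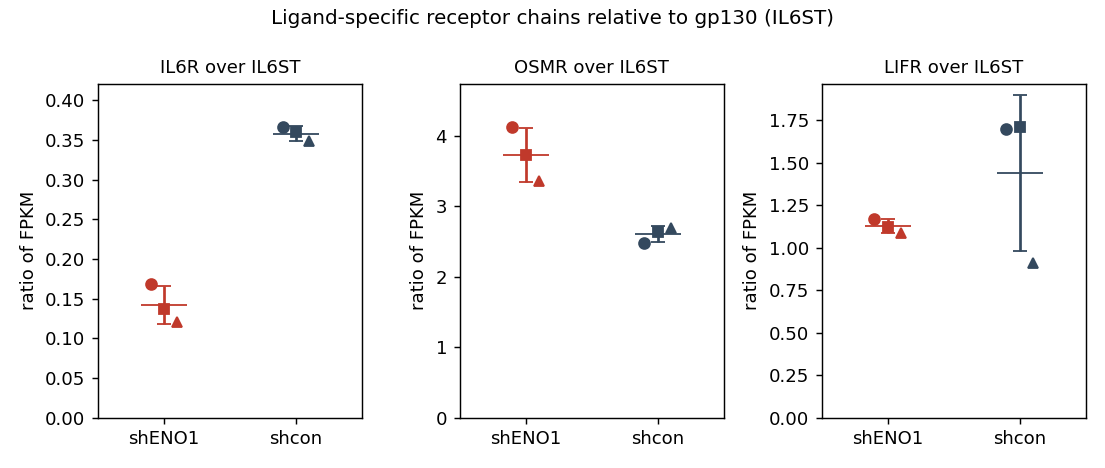
Ratio of the FPKM of IL6R, OSMR and LIFR to that of IL6ST in each library, shENO1 left of shcon, with the mean as a dash and the SD as a bar (n = 3 each). The ratio of IL6R to IL6ST is 0.121 to 0.168 in shENO1 libraries and 0.348 to 0.366 in shcon libraries, that of OSMR to IL6ST is higher in shENO1 libraries, and that of LIFR to IL6ST is spread widely in shcon libraries.

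Neither the signal transducer nor its inhibitor passed the test. STAT3 (ENSG00000168610, chromosome 17 from 42313324 to 42388540) was at 13.8, 14 and 13 FPKM in shENO1 libraries, against 13.1, 13.5 and 13 FPKM in shcon libraries. The groups of STAT3 overlapped, and the log2 fold change was 0.04, with a 95% interval from -0.14 to 0.23. SOCS3 (ENSG00000184557, chromosome 17 from 78356778 to 78360077), a transcript that STAT3 induces, was at 20.6, 17.5 and 18.7 FPKM in shENO1 libraries, against 26.5, 23.7 and 18.2 FPKM in shcon libraries. Its groups overlapped through shcon replicate 3, and the log2 fold change was -0.24, with a 95% interval from -0.57 to 0.08. RNA levels do not report the phosphorylation of STAT3, which was not measured in these libraries.

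The levels were ordered differently in the groups. By mean FPKM the order in shENO1 cells was OSMR (90.1), LIFR (27.3), IL6ST (24.3), SOCS3 (18.9), STAT3 (13.6), IL6 (12.1), LIF (10.1), CLCF1 (5.77), IL6R (3.41) and IL11 (0.498). In shcon cells it was OSMR (37.8), SOCS3 (22.8), LIFR (20.3), IL6ST (14.5), STAT3 (13.2), LIF (7.86), CLCF1 (7.7), IL6R (5.17), IL6 (2.93) and IL11 (0.313). IL6 thus stood just below STAT3 in shENO1 cells and next to last in shcon cells. In shENO1 libraries the ranges of LIFR and IL6ST overlapped. In shcon libraries the ranges of SOCS3, LIFR, IL6ST and STAT3 each overlapped with the next in this order, and so did those of LIF and CLCF1.

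Read against the whole table, 9 of the 10 members passed the filter of a mean of at least 0.5 FPKM. Of these 9, 4 were called higher (IL6, LIF, IL6ST and OSMR), 1 was called lower (IL6R) and 4 were not called (CLCF1, LIFR, STAT3 and SOCS3), at an adjusted p under 0.05 from limma. Of all 15181 genes tested, 29.5% were called, 15.1% higher and 14.4% lower. The groups did not overlap for 6 of the 9 members, 5 higher and 1 lower, against 46.6% of all genes tested, 25.0% higher and 21.5% lower. Since the family was chosen with this contrast known, nothing is read from these counts. The calls of IL6, IL6ST and OSMR held in each of 19 alternative settings. The count of members called higher varied from 3 to 5 over them, with 5 under limma-voom, which also called LIFR (0.45). LIF was no longer called in 9 of them, among them the fit blocked on replicate number, which called CLCF1 lower. Others were the fits without shcon replicate 1 (0.30), shcon replicate 2 (0.30), shENO1 replicate 1 (0.25), shENO1 replicate 2 (0.32) and shENO1 replicate 3 (0.39). LIF was still called with both trends removed (0.58) and with the GC content trend alone removed (0.59). IL6R lost its call without shENO1 replicate 3 (-0.43) and with the GC content trend alone removed (-0.29), and also with both trends removed and the replicate block (-0.36). Without shcon replicate 3, CLCF1 (-0.49) and SOCS3 (-0.39) were called lower. That library also stood apart in FOS, an AP-1 gene chosen here after its values were seen, with 6.19, 5.79 and 5.52 FPKM in shENO1 libraries and 17.3, 17.8 and 2.64 FPKM in shcon libraries.

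**Figure D3:**
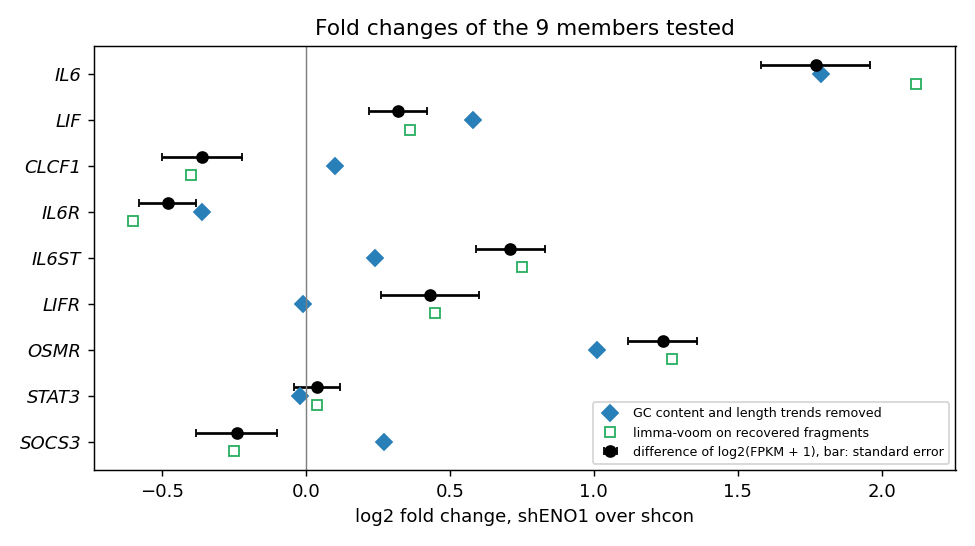
Log2 fold change of shENO1 over shcon for the 9 members tested, as a difference of log2(FPKM + 1) with its standard error (black), with GC content and length trends removed (blue) and from limma-voom on recovered fragments, where no value of 1 is added (green). IL6 and OSMR are above 1 in all 3, IL6R is below 0 in all 3, and CLCF1, LIFR, STAT3 and SOCS3 change sign once the trends are removed.

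The other genes of the pathway were taken as 8 lists of ligands, receptors, kinases and STAT factors, inhibitors, shedding proteases, STAT3 targets, proteins that bind IL6 mRNA and factors that drive IL6 transcription. Of 84 genes, 81 were in the table and 69 were tested, with 17 higher, 10 lower and 42 that did not pass. This was 39.1% called, beside 29.5% of all genes, and the median log2 fold change was 0.00 beside 0.03 over all genes. The lists were chosen with earlier results of these data known, so nothing is read from their shares. CNTFR, SAA1 and A2M reached the minimum mean only through the group where they were high, and without them 16 of 66 were higher and 8 lower. Once the trends were removed, 21 of 69 were higher and 6 lower, with CNTFR, SAA1 and A2M again counted. This stood beside 21.2% of all genes called in that fit, and 15 genes were called in both fits. Of the 19 genes named by rule from these lists, 12 lost their call without shENO1 replicate 2, 10 without shENO1 replicate 3 and 9 without shcon replicate 1. Without shENO1 replicate 2 these were CTF1, CNTFR, TYK2, STAT5A, PTPN6, PTPN11, PIAS2, ADAM17, ADAM10, MCL1, RC3H2 and ATF4, and 5 genes were then higher and 3 lower over all lists. Calls over all 15181 genes fell in the same fit from 2289 to 753 higher and from 2188 to 756 lower, so the loss was not particular to these lists.

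Of 6 further ligand genes in the table, 4 were tested and only CTF1, the gene of cardiotrophin 1, was called, with 0.857, 0.861 and 1.05 FPKM in shENO1 libraries and 2.02, 1.41 and 1.5 FPKM in shcon libraries. Its log2 fold change was -0.45 (adjusted p = 0.0339 from limma), but 0.19 with the trends removed. For the ligands this was 25.0% called, beside 29.5% of all genes. OSM, the ligand of OSMR, had no more than 3 fragments in a library. Among 3 receptor genes tested, CNTFR, the alpha chain for ciliary neurotrophic factor and CLCF1, had a log2 fold change of 0.63. It was low, at 1.02, 0.731 and 0.888 FPKM in shENO1 libraries and 0.146, 0.418 and 0.086 FPKM in shcon libraries, and reached the minimum mean of 0.5 FPKM only through the shENO1 group, where it was high, so that no test is given for it. None of the other 2 receptor genes was called. IL11RA did not pass the test, with 2, 1.64 and 1.23 FPKM in shENO1 libraries and 2.27, 2.11 and 1.19 FPKM in shcon libraries.

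Of 9 kinase and STAT genes tested, 1 was higher and 2 were lower, or 33.3% called beside 29.5% of all genes. JAK2, a kinase bound to gp130, was at 4.56, 5.72 and 5.85 FPKM in shENO1 libraries and 3.12, 2.97 and 3.15 FPKM in shcon libraries, a log2 fold change of 0.64 (adjusted p = 0.0068 from limma) or 0.28 with the trends removed. JAK1, the main kinase of gp130 signaling, did not pass (-0.14). TYK2 and STAT5A fell by 0.41 and 0.33 on the log2 scale (adjusted p = 0.0472 and adjusted p = 0.039 from limma), and neither was called with the trends removed. Of 13 inhibitor genes tested, 4 were higher and 1 was lower, or 38.5% called beside 29.5% of all genes. SOCS4, PTPN11 and PIAS2 had log2 fold changes of 0.71, 0.45 and 0.43, and PTPN6, the phosphatase SHP-1, fell by 0.51 (adjusted p = 0.0181 from limma). PTPN11 encodes SHP2, which both dampens gp130 signals and passes them to the ERK pathway. With the trends removed SOCS4 (0.19) and PTPN11 (0.26) were still called, and PIAS2 (-0.04) and PTPN6 (-0.18) were not.

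The proteases ADAM10 and ADAM17, which cut IL6R from the cell surface, were both higher, as were 15.1% of all genes. ADAM10 was at 12.3, 13.6 and 13.2 FPKM in shENO1 libraries and 8.61, 8.45 and 9.94 FPKM in shcon libraries, and ADAM17 at 4.43, 4.96 and 4.56 FPKM in shENO1 libraries and 2.74, 3 and 3.24 FPKM in shcon libraries. Their log2 fold changes were 0.49 and 0.50 (adjusted p = 0.00981 and adjusted p = 0.00928 from limma), but 0.04 and 0.14 without a call once the trends were removed. RHBDF1 and RHBDF2, which escort ADAM17 to the cell surface, did not pass (-0.25 and -0.24).

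**Figure D4:**
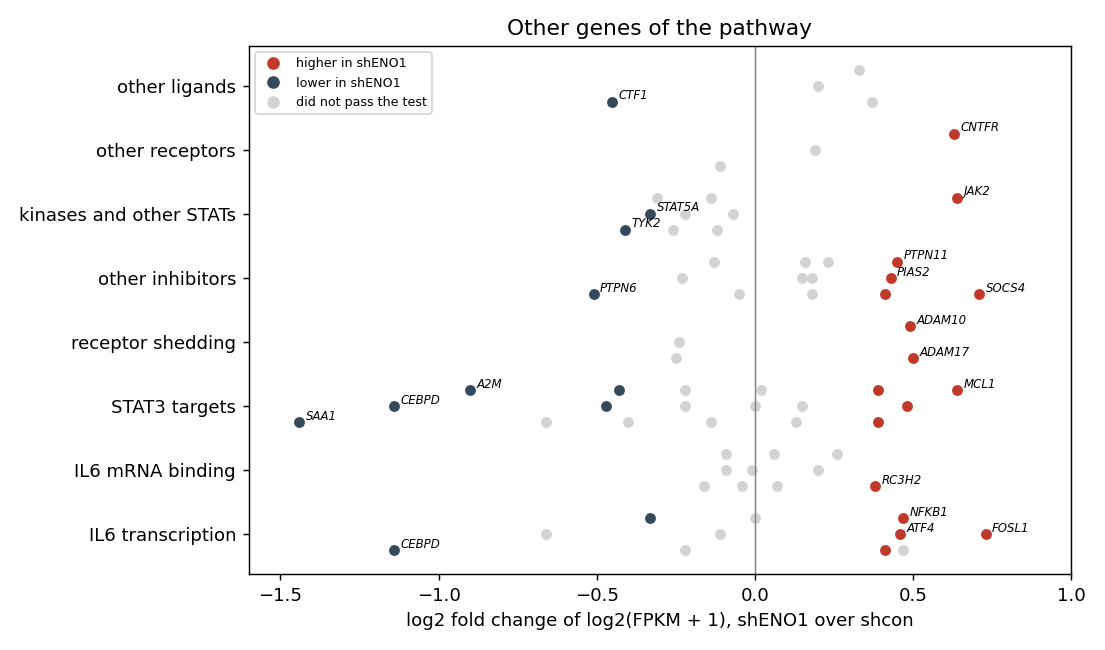
Log2 fold change of shENO1 over shcon for the tested genes of the 8 pathway lists, 1 point per gene, red if higher, dark blue if lower and grey if not called by limma at an adjusted p under 0.05. The named genes carry their symbols, and the STAT3 targets spread from SAA1 at -1.44 to MCL1 at 0.64.

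The STAT3 targets moved both ways, as did all genes tested, with 15.1% higher and 14.4% lower. Of 26 listed, 24 were in the table and 18 were tested, with 4 higher, 5 lower and 9 that did not pass, and a median log2 fold change of -0.18. Without SAA1 and A2M, which reached the minimum mean only through the shcon group, 4 of 16 were higher and 3 lower. With the trends removed, 6 of the 18 were higher and 4 lower, beside 21.2% of all genes called in that fit. MCL1, a survival factor of the BCL2 family, was at 80, 86.1 and 89.6 FPKM in shENO1 libraries and 48.7, 49.6 and 66.1 FPKM in shcon libraries, a log2 fold change of 0.64 (adjusted p = 0.0115 from limma). The other 3 higher genes were MYC, HIF1A and VEGFA, and the 5 lower genes were SAA1, CEBPD, A2M, IRF1 and TIMP1. HIF1A (0.00) and TIMP1 (0.04) were not called with the trends removed. SAA1, an acute-phase protein gene, was at 1.12, 0 and 0.181 FPKM in shENO1 libraries and 3.37, 2.56 and 2.2 FPKM in shcon libraries, a log2 fold change of -1.44. SAA1 is nearly identical to SAA2, so its reads may be split between both, and SAA2 had at most 3 fragments in a library. A2M, the gene of a protease inhibitor that is an acute-phase protein in the rat, was at 0.165, 0.121 and 0.132 FPKM in shENO1 libraries and 1.07, 1.22 and 1.09 FPKM in shcon libraries, a ratio of 0.124. CEBPD, a transcription factor of the acute-phase response, was at 33.3, 20.4 and 21.7 FPKM in shENO1 libraries and 62.1, 57.7 and 47.4 FPKM in shcon libraries. Its log2 fold change was -1.14 (adjusted p = 0.00666 from limma), or -0.27 with the trends removed, where it was still called. JUNB (0.15), BCL3 (-0.14) and PIM1 (0.02) were among the genes that did not pass. With the trends removed, JUNB (0.86), BCL3 (0.48) and CEBPB (0.52) were called higher. Most genes of this list also answer to other factors.

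Of 10 genes for proteins that bind IL6 mRNA, 1 was higher and 9 did not pass, or 10.0% called beside 29.5% of all genes. The higher one, RC3H2, a relative of the RNA-decay factor roquin, had a log2 fold change of 0.38 (adjusted p = 0.0274 from limma), or 0.01 with the trends removed. In that fit 4 of the 10 were higher and 1 was lower, beside 21.2% of all genes called. ZC3H12A, whose product regnase-1 degrades IL6 mRNA, was at 7, 5.34 and 4.65 FPKM in shENO1 libraries and 5.56, 5.08 and 5.21 FPKM in shcon libraries. It did not pass the test, and the same held for ZFP36, whose product tristetraprolin binds AU-rich elements (-0.09). With the trends removed ZC3H12A (0.52), ZFP36 (0.41), ARID5A (0.81) and KHSRP (0.21) were called higher and HNRNPD (-0.32) lower.

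Of 11 factors that drive IL6 transcription, 4 were higher, 2 lower, and 5 did not pass, or 54.5% called beside 29.5% of all genes. NFKB1, the gene of the p105 and p50 subunits of NF-kB, was at 13.5, 13.1 and 12.4 FPKM in shENO1 libraries and 8.97, 9.79 and 8.7 FPKM in shcon libraries, a log2 fold change of 0.47 (adjusted p = 0.00896 from limma). FOSL1, an AP-1 subunit, was at 24.3, 20.7 and 20 FPKM in shENO1 libraries and 10.7, 12 and 15.8 FPKM in shcon libraries, a log2 fold change of 0.73 (adjusted p = 0.0116 from limma). The other higher genes were ATF4 (0.46) and CREB1 (0.41), and the lower genes were CEBPD and NFKBIZ (-0.33). RELA, the main activating subunit of NF-kB, was at 27, 24.4 and 22.1 FPKM in shENO1 libraries and 24.8, 25.3 and 23.1 FPKM in shcon libraries, and CEBPB did not pass either (-0.22). With the trends removed, NFKB1 (0.39), FOSL1 (1.24) and ATF4 (0.75) were still called higher and CREB1 (-0.01) was not, while RELA (0.32) and CEBPB (0.52) were called higher. CEBPD (-0.27) and NFKBIZ (-0.44) were still called lower.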

How the data were processed

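RNA of 3 shENO1 and 3 shcon libraries of cells labelled SNU16 was analysed from the table of FPKM values that the authors deposited, with 1 value per Ensembl gene and library. Per the submitters' processing notes, the build was GRCh38 and the tools were featureCounts, cutadapt and MultiQC. For the aligner and the annotation release the sources used here give nothing. Differences of log2(FPKM + 1) were fitted with limma 3.58.1 (lmFit, eBayes with a trend) in R 4.3.3 for the 15181 genes averaging 0.5 FPKM or more, with Benjamini-Hochberg adjustment over all of them and a threshold of 0.05. The members and gene lists were chosen with earlier results of these data known. The rule for naming took all members, ENO1, genes overlapping a member and, per pathway list, at most the 4 called genes of largest absolute fold change, or the 2 of highest mean where none was called. Others were named after their values were seen.

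Fragments were recovered for 15123 of the genes tested, 6198 with the union exon length of GENCODE 29 and 8925 with a fitted length, within 0.05 fragments of a whole number. GC content and exon length trends were fitted in each library by natural splines (4 degrees of freedom). The fit and the trend removal were also run on simulated data with independent noise in each library. Nothing about the libraries here is read from that run. The correlation between shENO1 and shcon libraries of the same number, after subtracting group means, was 0.495, 0.208 and 0.479 over genes of at least 5 FPKM. Between libraries of different number it was -0.471 to 0.122. The numbers were therefore treated as pairs in an alternative fit, from the data alone, since the labels do not describe them as such. Tables were made with Python 3.11.15 and pandas 2.3.3. Start windows are those of RefSeq.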

Additional observations from a re-analysis of the deposited data

How the results depend on the processing

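Over 19 alternatives, IL6 ranged from 1.53 to 2.12, OSMR from 1.01 to 1.38 and IL6ST from 0.24 to 0.80 on the log2 scale, all called throughout. The count of members called lower was 1. It was 0 when genes had to average 5 FPKM, since that filter took IL6R (means of 3.41 FPKM in shENO1 and 5.17 FPKM in shcon) out of the test. The count was 2 with the replicate block and 0 with the GC content trend alone removed. It was 0 with both trends (GC content and length) removed together with the replicate block, and 0 to 3 when each library was left out. With the GC content trend alone removed SOCS3 was at 0.21, CTF1 at 0.05, TYK2 at 0.004 and STAT5A at 0.001. With both trends removed, with or without the replicate block, CLCF1 was at 0.10, LIFR at -0.01, STAT3 at -0.02, SOCS3 at 0.27, CTF1 at 0.19 and PIAS2 at -0.04, each turned from its sign without this step, and the cause was not tested. The filter of 5 FPKM also took low genes of the other pathway lists out of the test. Other pathway genes called higher were 17, but 11 when genes had to average 5 FPKM and 5 to 17 when each library was left out. Those called lower were 10, but 5 without a filter, 6 when genes had to average 5 FPKM, 4 with the GC content trend alone removed, 6 with both trends removed, 6 with these and the replicate block, and 3 to 14 when each library was left out. Of the 19 pathway genes named by rule, 5 were called in every alternative that tested them, namely CEBPD, FOSL1, NFKB1, SAA1 and A2M. SAA1 and A2M passed the filter only through the shcon group, so nothing is read from their calls. Of the 19, 12 lost their call when some library was left out, 8 with both trends removed and 0 with the replicate block alone. Under that block all 27 pathway genes called before remained called, with 19 higher and 11 lower of 69, beside 37.1% of all genes called in that fit, and among the members only the calls of LIF and CLCF1 changed. The numbers of all genes called were 753 to 3028 higher and 756 to 2799 lower when each library was left out. Depth limits IL11, IL6-AS1 and OSM, which rest on few fragments.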
